A study of Mus musculus with 12 samples.

Results

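The 50 genes described here encode the matrix metalloproteinases (22 Mmp genes), the ADAMTS proteases (19), the ADAMTS-like proteins (5) and the tissue inhibitors of metalloproteinases (4 Timp genes) of the mouse. They were taken by symbol among 24391 genes counted, with earlier results of these data known, and Mmp9 was left out of the selection. RNA was measured by sequencing in the anterior part of the hard palate of mouse embryos at embryonic days 14.5 and 16.5 (E14.5 and E16.5). At each age 3 control libraries, labelled wild type, were set beside 3 libraries of Shox2Cre; R26RFgf8 mutants, in which a Cre recombinase made in Shox2-expressing cells switches on an Fgf8 allele placed in the Rosa26 locus. All 12 samples are labelled as strain C57BL/6. Nothing in the labels tells single embryos from pools, and the p-values below therefore measure the spread between these samples, which may be technical.

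Matrix metalloproteinases are zinc enzymes that cut collagens, proteoglycans and cell surface proteins, and most are made as inactive precursors. The membrane-bound Mmp14 activates the precursor of Mmp2 in a complex that includes Timp2, so the same inhibitor can take part in activation and in blockade. ADAMTS enzymes fall into families that trim the ends of fibrillar procollagens, cut large proteoglycans such as versican and aggrecan, or act near fibrillin microfibrils, whereas ADAMTS-like proteins resemble their non-catalytic part and have no protease activity. Cleavage of versican by Adamts9 and Adamts20 is known to contribute to closure of the secondary palate in mice. The inhibitors bind active metalloproteinases, and Timp3, which sits in the matrix, also blocks several ADAM and ADAMTS enzymes.

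Fgf8 was at a mean of 0.316 CPM (the read count scaled to library size) in E14.5 controls and 10.8 CPM in E14.5 mutants, and at 0.383 and 16.1 CPM at E16.5, with no overlap between genotypes. Total counts were between 76417891 and 125996587 per library. The E16.5 mutants were the least alike group. Library 2 differed from the nearest library of its group by 0.619 (root mean square of log2 CPM over 17550 genes), where every other library was at 0.409 to 0.447. Libraries 1 and 3, which were nearest to each other, differed from it in markers of other tissues: the summed level of 6 retinal marker genes was 108 and 53.5 CPM there and 0.706 CPM in library 2, against 0.98 to 3.15 CPM in the E16.5 controls, and 7 neuron markers summed to 274 and 161 CPM against 52.6 CPM in library 2. The 3 E14.5 controls also stood apart, with 212 to 262 CPM of Ctnnb1 (beta-catenin), a gene at 1567 to 1873 CPM in the other 9 libraries. Ctnnb1 was picked for this mention after its values were seen. The E14.5 controls enter the E14.5 comparison of genotypes, the change with age in controls and the difference between the ages. Whether what sets them apart has a part in those results was not tested. In tissue RNA, fewer cells of a type and less RNA per cell cannot be told apart.

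Of the 50 genes, 41 reached a mean of 1 CPM in at least 1 group and 7 reached 100 CPM. Per kilobase of exon, the scale on which levels of different genes can be compared, Mmp2 (a gelatinase) led in every group, with 166 CPM per kb in E14.5 controls, followed by Timp2 (130.0) and Mmp14 (89.3). The same 3 genes, the partners of the Mmp2 activation complex, led in this order in the E14.5 mutants (158, 108 and 77.2 CPM per kb), the E16.5 controls (111, 85.1 and 61.1) and the E16.5 mutants (119, 90.4 and 66.3). Mmp11 and Timp3 came next in all 4 groups. The level of Mmp11 per kb was above that of Timp3 in E16.5 controls (22.8 against 21.1 CPM per kb), whereas Timp3 was above Mmp11 in E16.5 mutants (42.0 against 27.0 CPM per kb). In the E16.5 controls the libraries of the 2 genes overlapped on this scale. Among ADAMTS genes the highest level per kb was that of Adamts2 in E14.5 controls (20.7), of Adamts10 in the mutants of both ages (23.1 and 20.7) and of Adamts1 in E16.5 controls (15.1).

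The 9 genes under a mean of 1 CPM in every group were Mmp3, Mmp8, Mmp10, Mmp1a, Mmp1b, Mmp7, Mmp20, Mmp21 and Mmp27, and the last 6 of these were too low to be tested in any comparison. Except for Mmp21, all of them lie in a run of 10 neighbouring protein-coding genes on chromosome 9, in the order Mmp13, Mmp12, Mmp1b, Mmp3, Mmp1a, Mmp10, Mmp8, Mmp27, Mmp20 and Mmp7. This run holds secreted collagenases, stromelysins, the macrophage elastase Mmp12 and the enamel protease Mmp20, a group of which several members are known to be switched on through AP-1, the Fos and Jun dimer. Only 2 of the 10 were above 1 CPM: Mmp13, at 5.95 to 26.7 CPM over the 12 libraries, and Mmp12, at 0.927 to 5.25 CPM. The next were Mmp3 (0.0823 to 0.909 CPM) and Mmp8 (0.0985 to 0.706 CPM), and Mmp1b had no count in any library. The 4 promoters below, from RefSeq on GRCm38.p6, are shown because the 2 active and 2 nearly silent genes share a promoter element at a like position. Each covers 250 bases before to 50 bases after the transcript start, on the plus strand, with the 7-letter AP-1 element (TGANTCA, which reads the same on both strands) in capitals.
Mmp13, chr9:7272264-7272563: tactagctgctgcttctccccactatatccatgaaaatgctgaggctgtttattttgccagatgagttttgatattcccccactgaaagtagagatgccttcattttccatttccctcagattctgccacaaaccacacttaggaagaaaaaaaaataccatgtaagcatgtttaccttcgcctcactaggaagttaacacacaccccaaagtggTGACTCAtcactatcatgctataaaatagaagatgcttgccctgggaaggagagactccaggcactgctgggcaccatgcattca
Mmp12, chr9:7347124-7347423: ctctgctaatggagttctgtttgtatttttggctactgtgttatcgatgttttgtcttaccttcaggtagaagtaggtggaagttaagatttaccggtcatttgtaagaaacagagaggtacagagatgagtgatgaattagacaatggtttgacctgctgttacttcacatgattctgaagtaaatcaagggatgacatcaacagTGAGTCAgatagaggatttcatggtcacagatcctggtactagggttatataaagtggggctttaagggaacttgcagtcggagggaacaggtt
Mmp3, chr9:7445572-7445871: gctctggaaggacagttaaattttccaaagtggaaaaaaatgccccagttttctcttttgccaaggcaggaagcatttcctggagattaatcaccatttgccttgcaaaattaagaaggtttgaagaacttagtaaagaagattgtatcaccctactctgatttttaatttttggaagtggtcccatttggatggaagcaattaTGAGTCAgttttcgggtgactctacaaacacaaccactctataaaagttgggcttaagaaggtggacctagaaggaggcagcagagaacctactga
Mmp10, chr9:7502092-7502391: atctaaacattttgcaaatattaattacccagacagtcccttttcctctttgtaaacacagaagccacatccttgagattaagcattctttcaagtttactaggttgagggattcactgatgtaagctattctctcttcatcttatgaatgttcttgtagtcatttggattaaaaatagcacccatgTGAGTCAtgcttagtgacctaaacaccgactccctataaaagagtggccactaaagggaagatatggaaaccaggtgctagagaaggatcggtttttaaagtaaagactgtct
The element starts 35 bases before the transcript start in Mmp13, 44 in Mmp12, 46 in Mmp3 and 63 in Mmp10. It was present in a promoter of 8 of the 10 genes of the run (not in those of Mmp8 and Mmp27) and in that of 0 of the other 26 family members with a promoter in the table, which held 39 promoters of 36 members. Over all 32851 promoters of this length 7.81% held it. AGGAAG, the core bound by ETS factors, was in 16 of the members' 39 promoters and in 35.4% of all promoters, and TGTGGT, bound by Runx factors, in 15.4% and 16.8%, both strands searched. These matches describe letters only, and the element was present both in promoters of genes with counts and in promoters of genes with almost none.

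More family members were lower than higher in the E14.5 mutants. Adamtsl1 was at 31.5 ± 2.57 CPM against 59.7 ± 2.24 in controls (mean ± SD, n = 3), Timp1 at 16.4 ± 1.79 against 27.2 ± 3.30, Adamts17 at 47.3 ± 2.68 against 76.9 ± 6.41 and Adamts9 at 49.4 ± 1.42 against 72.2 ± 2.90. Mmp12, Adamts16 and Adamts20 were the 3 genes that rose. With edgeR's quasi-likelihood test and an adjusted p under 0.05 over all 16650 genes tested, 12 of the 44 family members tested fell and 3 rose, 0 of them by 2-fold or more (0.384% of all genes rose and 0.691% fell by that much). Among all genes tested, 4.57% fell and 2.95% rose, against 27.3% and 6.82% of the family. The median log2 fold change was -0.12 over the 44 members and 0.012 over all genes. The number that fell was 6 without control library 3, mutant library 1 or mutant library 2, and between 8 and 14 without another library. The number that rose was 1 without mutant library 1 or 2, and 0 when all 12 libraries were in 1 fit (edgeR, adjusted p from 0.0858 to 0.150 for the 3 genes).

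At E16.5 more family members were higher than lower in the mutants. Timp3 was at 198 ± 23.4 CPM against 99.4 ± 7.04 in controls, Adamts14 at 18.6 ± 0.621 against 12.03 ± 0.254 and Adamts20 at 24.5 ± 3.95 against 14.6 ± 1.08, while Timp4 was at 6.31 ± 0.682 against 18.1 ± 1.31. Of 44 members 13 rose and 5 fell, among 17169 genes tested, of which 12.2% rose and 15.7% fell. The corresponding shares of the family were 29.5% and 11.4%, and the median log2 fold change was 0.18 against 0.011 for all genes. Mmp24, Adamts13, Adamtsl2 and Timp3 rose by 2-fold or more and Timp4 fell by more than that, changes made by 3.13% and 5.98% of all genes. The number that rose was 7 without control library 1 or 2 and 8 without control library 3, and 8 when only genes of 5 CPM or more in 3 libraries were tested. With mutant library 2 as the sole mutant, 11 rose and 4 fell.

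The mutant effect itself differed between the ages for 14 members. The test of that difference, in a fit of all 12 libraries that uses the same samples as the comparisons above, called 13 members higher (a log2 change more positive at E16.5) and 1, Timp4, lower, of 44. Among 17550 genes tested 9.97% were called higher and 12.4% lower. The median difference was 0.35 for the family and -0.012 for all genes. The number of higher calls was 7 without E14.5 control library 1 or 3, 8 without E16.5 control library 2 and 6 with mutant library 2 as the sole E16.5 mutant, while Timp4 was called in each of these. With that sole mutant Mmp14, Mmp24, Timp2, Adamts2, Adamts3, Adamts15, Adamts17 and Adamtsl3 were not called (adjusted p from 0.101 to 0.469). In the separate tests of each age, 5 members passed the test in the same direction at both: Adamts16 and Adamts20 rose, and Adamts1, Adamtsl1 and Adamtsl4 fell. Of the 16398 genes tested at both ages, 1.26% rose at both and 1.07% fell at both.

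**Figure D1:**
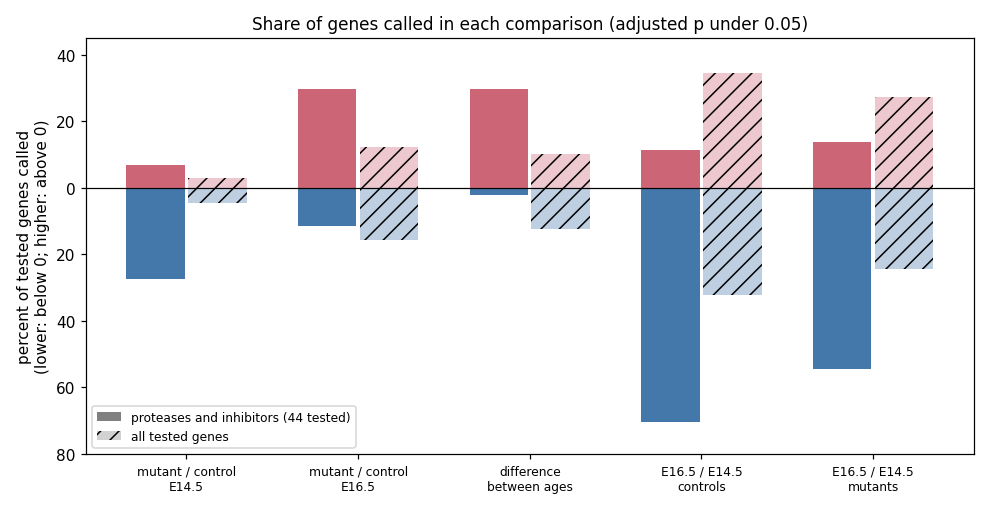
Percent of tested genes called in each comparison (edgeR, adjusted p under 0.05), with genes called higher above 0 and genes called lower below 0; solid bars are the 44 tested family members and hatched bars all genes tested. At E14.5 27.3% of the family and 4.57% of all genes fell, with age in controls 70.5% and 32.1% fell, and at E16.5 29.5% and 12.2% rose.

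**Figure D2:**
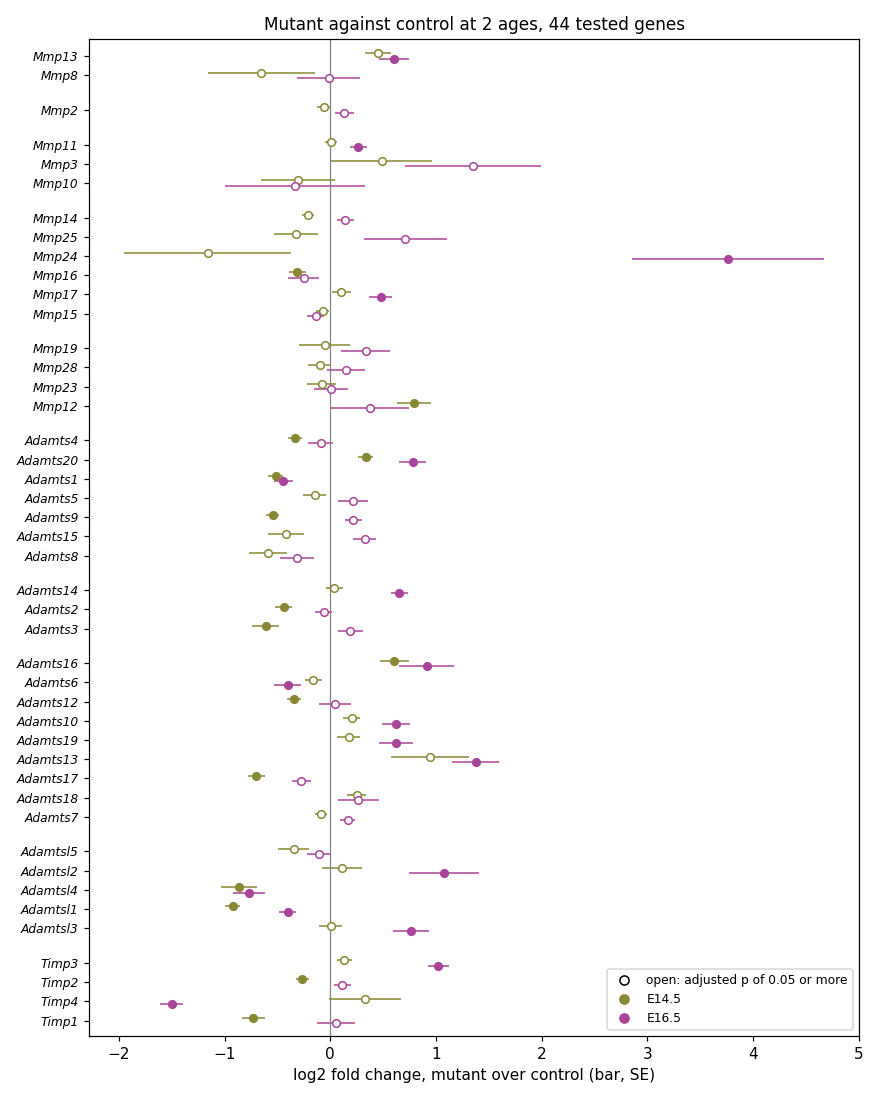
Log2 fold change of mutant over control (horizontal axis; bar, SE) at E14.5 and E16.5 for the 44 tested members, ordered by class from collagenases at the top to TIMPs at the bottom; filled points passed an adjusted p of 0.05. Timp4 and Mmp24 lie farthest from 0 at E16.5 (-1.50 and 3.76), and the lowest filled E14.5 points are those of Adamtsl1 (-0.92), Adamtsl4 (-0.87), Timp1 (-0.73) and Adamts17 (-0.70).

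All 4 inhibitors passed the test of a difference between the ages: Timp1 and Timp2 fell in the E14.5 mutants, and at E16.5 Timp3 rose and Timp4 fell. Among all 17550 genes in that test, 9.97% were called higher and 12.4% lower. Timp1, a secreted inhibitor, was at 27.6, 30.4 and 23.8 CPM in the E14.5 controls and at 18.5, 15.5 and 15.3 CPM in the mutants. Its E16.5 values were 12.4, 13.04 and 9.45 CPM in controls and 13.8, 12.5 and 9.21 CPM in mutants. The genotypes were apart at the earlier age (fold change of -0.73 on the log2 scale, SE 0.11, adjusted p = 0.00271) and overlapped fully at E16.5 (0.05, SE 0.18, adjusted p = 0.859). The difference between the ages was 0.76 (SE 0.22, adjusted p = 0.0285) and was lost without E14.5 control library 1 or 2, E14.5 mutant library 2 or 3, E16.5 control library 3 or E16.5 mutant library 1 (adjusted p from 0.0532 to 0.0661). Timp1 lies on the X chromosome. Xist, the RNA of the inactive X, was at a mean of 779.9 CPM in controls and 486 CPM in mutants at E14.5 (-0.68), and at 404 and 898.5 CPM at E16.5 (1.18). The part of the embryos' sex in the level of Timp1 was not tested.

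Timp2, the most abundant inhibitor, was at 499, 447 and 494 CPM in E14.5 controls and 386, 399 and 414 CPM in E14.5 mutants, a small gap without overlap (-0.27, SE 0.06, adjusted p = 0.0314). At E16.5 the controls at 300.1, 303 and 343 CPM and the mutants at 343, 312 and 351 CPM overlapped (0.11, SE 0.08, adjusted p = 0.353). The E14.5 call was lost without control library 1 or 3 or mutant library 1 or 2 (adjusted p from 0.103 to 0.141).

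Timp3 showed the reverse timing. At E14.5 it was at 161, 151 and 169 CPM in controls and 163, 172.5 and 192 CPM in mutants, which overlapped (0.13, SE 0.07, adjusted p = 0.306). At E16.5 the controls had 97.2, 93.7 and 107 CPM and the mutants 208, 171.5 and 215 CPM, so every mutant library was well above every control (1.02, SE 0.10, adjusted p = 0.000177). The lowest of the mutants was library 2, the one with the lowest sums of retinal and endothelial markers and the highest sum of epithelial markers. The part of these tissues in the level of Timp3 was not tested. The difference between the ages was 0.86 (SE 0.13, adjusted p = 0.000544). Both calls at an adjusted p under 0.05 were made in every alternative run, but the difference between the ages was under 2-fold.

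Timp4 was nearly silent at E14.5, with 0.469, 0.887 and 0.541 CPM in controls and 0.829, 1.01 and 0.557 CPM in mutants. At E16.5 it was at 19.2, 18.5 and 16.7 CPM in the 3 controls and at 6.07, 7.08 and 5.78 CPM in mutants. The late rise was thus present in both genotypes, and the level reached in mutants was 2.83-fold lower (log2 fold change -1.50, SE 0.11, adjusted p = 3.14e-05). The change from E14.5 to E16.5 was 4.81 (SE 0.24) in controls and 2.98 (SE 0.23) in mutants on the log2 scale, and the difference between them, -1.83 (SE 0.32, adjusted p = 0.00144), was called in every alternative run. The exons of Timp4 share 1.53% of their bases with Syn2 on the opposite strand. The sum of the 4 inhibitors moved in opposite directions at the 2 ages, from 630 to 689 CPM in controls and 568 to 622 in mutants at E14.5, and from 429 to 477 in controls and 504 to 581 in mutants at E16.5.

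**Figure D3:**
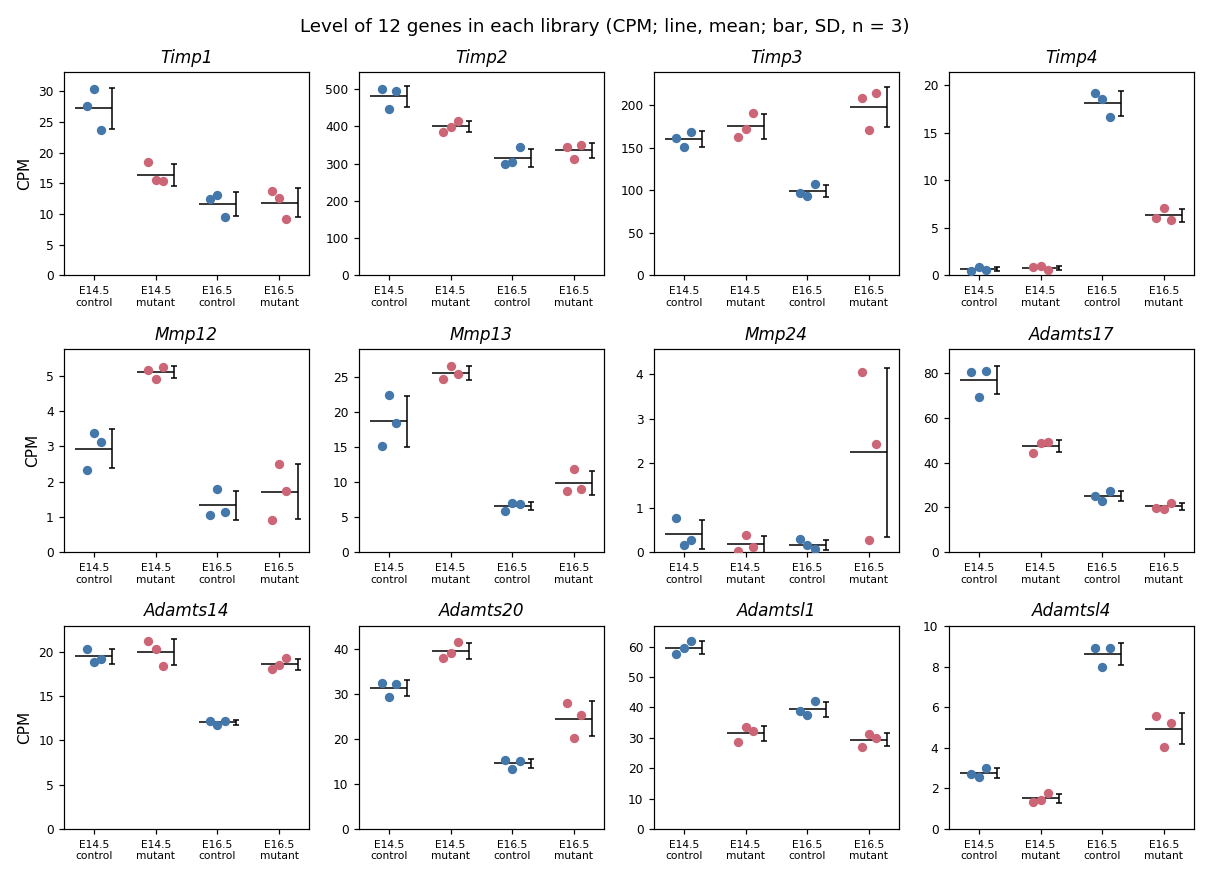
Level of 12 members in each of the 12 libraries (CPM on the vertical axis, scaled by TMM over all libraries; points, libraries in the order 1 to 3; line, mean; bar, SD, n = 3). Timp1 and Timp2 separate by genotype at E14.5, Timp3 and Timp4 at E16.5, and the E16.5 level of Mmp24 is high in mutant libraries 1 and 3 (4.05 and 2.43 CPM) and at 0.267 CPM in library 2.

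Among the secreted MMPs, the collagenase Mmp13, an enzyme of bone and cartilage remodelling, and the elastase Mmp12 were higher in mutants. Mmp13 was at 15.2, 22.5 and 18.5 CPM in E14.5 controls and 24.7, 26.7 and 25.4 CPM in E14.5 mutants. At E16.5 it was at 5.95, 7.01 and 6.82 CPM in controls and 8.79, 11.8 and 9.01 CPM in mutants. All mutants were above all controls at each age. The E16.5 gap passed the test (0.60, SE 0.14, adjusted p = 0.0141), though not without control library 1 (adjusted p = 0.0616), and the E14.5 gap missed it (0.45, SE 0.12, adjusted p = 0.0507). Mmp12 was at 2.33, 3.38 and 3.11 CPM in E14.5 controls and 5.16, 4.91 and 5.25 CPM in E14.5 mutants (0.80, SE 0.16, adjusted p = 0.0136), a call lost without mutant library 1 (adjusted p = 0.0558). At E16.5 the controls (1.051, 1.80 and 1.14 CPM) and mutants (0.927, 2.49 and 1.74 CPM) overlapped. Of the 8 macrophage markers, 2 fell at E14.5 and 0 rose, their sum was 122 to 133 CPM in controls and 86.4 to 118 CPM in mutants, and the part of macrophages in the Mmp12 value was not tested.

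Mmp2, the most abundant protease, was at 542, 494 and 492 CPM in E14.5 controls and 489, 499 and 475 CPM in mutants, and at 347, 346 and 332 CPM against 412, 336 and 355 CPM at E16.5. The genotypes overlapped at both ages (-0.06 and 0.13, SE 0.06 and 0.09, adjusted p = 0.573 and 0.343). Mmp11, a stromal enzyme, was between 94.7 and 103.8 CPM in all 6 E14.5 libraries. At E16.5 it rose from 54.5, 53.2 and 48.8 CPM in controls to 60.2, 66.7 and 58.2 CPM in mutants, a gap of 0.26 (SE 0.08, adjusted p = 0.0326) that was lost without any control library or without mutant library 1 or 2 (adjusted p from 0.0612 to 0.101). Mmp3 was at 0.909 and 0.667 CPM in E16.5 mutant libraries 1 and 3 and at 0.133 CPM in library 2, against 0.156 to 0.334 CPM in the controls. Mmp19, Mmp23 and Mmp28 did not pass the test between genotypes at either age (log2 fold changes from -0.10 to 0.33). The exons of Mmp19 share 22.8% of their bases with Tmem198b and 6.14% with Gm47093, and those of Mmp28 12.3% with 1700020L24Rik, all on the opposite strand, and whether reads were counted by strand is not given in the sources used here.

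Of the 6 membrane-bound MMPs, Mmp16 fell at E14.5 and Mmp17 and Mmp24 rose at E16.5. Mmp14, the activator of Mmp2, was at 368, 364 and 390 CPM in E14.5 controls and 311, 326 and 332 CPM in mutants, without overlap (-0.21, SE 0.06, adjusted p = 0.0501). At E16.5 it was at 259.5, 240.1 and 268 CPM in controls and 274, 263 and 294.5 CPM in mutants (0.14, SE 0.08, adjusted p = 0.210, and 0.0322 with the replicate number as a block). Neither age passed the main test, but the difference between them did (0.33, SE 0.09, adjusted p = 0.0184). Mmp16 was at 53.7, 48.0 and 53.5 CPM in E14.5 controls and 40.4, 38.6 and 45.8 CPM in mutants (-0.31, SE 0.08, adjusted p = 0.0376), a call lost without control library 1 or 3 or mutant library 1 or 2 (adjusted p from 0.121 to 0.142). Mmp17, a lipid-anchored enzyme, was at 6.16, 7.08 and 7.21 CPM in E16.5 controls and 8.96, 9.57 and 9.50 CPM in mutants (0.48, SE 0.11, adjusted p = 0.0132, and 0.0574 without control library 1). Mmp15, at 47.0 to 64.5 CPM, and Mmp25 did not pass between genotypes at either age.

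Mmp24, a membrane-bound enzyme known from the nervous system, had the largest fold change of the family at E16.5, which rested on 2 libraries. It was at 0.287, 0.158 and 0.067 CPM in controls, and the mutants had 4.05, 0.267 and 2.43 CPM, so mutant library 2 lay within the control range while libraries 1 and 3 were far above it. The log2 fold change was 3.76 (SE 0.91, adjusted p = 0.0163) with all 3 mutants and 0.67 (adjusted p = 0.763) with library 2 alone, and the call was also lost without control library 2 or 3 (adjusted p = 0.0703 and 0.0517) and by limma-voom (adjusted p = 0.115). Libraries 1 and 3 are those with the high sums of retinal and neuron markers given above. The part of those tissues in the level of Mmp24 was not tested. The exons of Mmp24 share 14.8% of their bases with BC029722 on the opposite strand. At E14.5 the gene was at 0.0248 to 0.775 CPM in all 6 libraries.

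Among the 7 proteoglycan-cutting ADAMTS genes, Adamts1, Adamts4 and Adamts9 fell and Adamts20 rose at E14.5, and Adamts1 fell and Adamts20 rose at E16.5. Adamts1 was at 84.8, 81.4 and 89.4 CPM in E14.5 controls and 54.8, 59.3 and 64.4 CPM in mutants (-0.52, SE 0.07, adjusted p = 0.00156). The E16.5 controls had 72.1, 71.1 and 78.8 CPM and the mutants 57.9, 47.4 and 54.9 CPM (-0.44, SE 0.09, adjusted p = 0.00810). Its neighbour on chromosome 16, the aggrecan-cutting Adamts5, did not pass at either age (-0.15 and 0.22, adjusted p = 0.473 and 0.271). Adamts4 was at 25.5, 26.9 and 27.9 CPM in E14.5 controls and 21.6, 20.1 and 21.9 CPM in mutants (-0.33, SE 0.07, adjusted p = 0.0207), and lost the call without control library 3 or mutant library 1 or 2 (adjusted p from 0.0701 to 0.0838).

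Of the versican-cutting pair, Adamts9 fell and Adamts20 rose at E14.5, and both were higher in every mutant than in every control at E16.5, where only Adamts20 passed the test. Adamts9 was at 74.2, 68.8 and 73.4 CPM in E14.5 controls and 47.8, 49.8 and 50.6 CPM in mutants (-0.55, SE 0.06, adjusted p = 0.000318). At E16.5 it was at 32.7, 33.2 and 35.6 CPM in controls and 40.4, 36.4 and 39.2 CPM in mutants, every mutant above every control (0.22, SE 0.08, adjusted p = 0.0631, and 0.0322 with the replicate block). The difference between the ages was 0.74 (SE 0.08, adjusted p = 8.46e-05). Adamts20 was at 32.4, 29.4 and 32.2 CPM in E14.5 controls and 38.0, 39.0 and 41.6 CPM in mutants (0.33, SE 0.07, adjusted p = 0.0167, and 0.0539 without mutant library 2). Its level at E16.5 was 15.2, 13.3 and 15.1 CPM in controls and 28.0, 20.3 and 25.2 CPM in mutants (0.78, SE 0.13, adjusted p = 0.00308). The rise of Adamts20 thus passed at both ages, and the difference between the ages missed the threshold (0.42, adjusted p = 0.0608). Versican itself (Vcan) fell at E14.5, from 1073 ± 35.2 to 890.3 ± 57.4 CPM (-0.27, adjusted p = 0.0292), and rose at E16.5, from 394 ± 33.5 to 563 ± 38.4 CPM (0.54, adjusted p = 0.00257).

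Adamts15 and Adamts8, which are next to each other on chromosome 9, shared a spread among the E14.5 controls. Adamts15 was at 42.3, 24.2 and 33.1 CPM there and Adamts8 at 15.3, 8.91 and 12.9 CPM, lowest in control library 2 for both. This was not particular to the neighbours. Control library 2 was also the lowest for Adamts2, Adamts3, Adamts12 and Adamts17, on other chromosomes, though not for every member, and was the highest for Mmp13. The exons of Adamts8 share 13.5% of their bases with Gm29724 on the opposite strand. In the E14.5 mutants Adamts15 and Adamts8 were at 22.6 to 26.9 and 7.25 to 8.89 CPM. Neither passed at E14.5 (-0.42 and -0.59, adjusted p = 0.158 and 0.0744), and both did without control library 2 (-0.61 and -0.79, adjusted p = 0.0110 and 0.0055). For Adamts15 the difference between the ages was 0.72 (SE 0.23, adjusted p = 0.0397), and at E16.5 its rise from 11.1 ± 1.38 to 13.7 ± 0.695 CPM missed the threshold (0.33, adjusted p = 0.0624, and 0.0231 with the replicate block).

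The 3 enzymes that remove the amino-terminal ends of fibrillar procollagens each passed the test of a difference between the ages, with every difference positive. That test called 9.97% of all genes higher and 12.4% lower. Adamts2 was at 161, 133 and 158 CPM in E14.5 controls and 106, 112 and 115 CPM in mutants (-0.44, SE 0.08, adjusted p = 0.00814), and at 76.6, 75.6 and 80.4 CPM against 76.3, 66.2 and 76.9 CPM at E16.5 (-0.06, SE 0.08, adjusted p = 0.616). Adamts3 was at 41.6, 29.9 and 42.0 CPM in E14.5 controls and 22.7, 23.8 and 27.8 CPM in mutants (-0.61, SE 0.13, adjusted p = 0.0202), a call lost without control library 1 or 3 or mutant library 1 or 2 (adjusted p from 0.0645 to 0.0906). Adamts14 had no gap at E14.5, with 20.4, 18.9 and 19.2 CPM in controls and 21.2, 20.3 and 18.4 CPM in mutants. At E16.5 its controls, at 12.2, 11.7 and 12.2 CPM, were all below its mutants, at 18.1, 18.5 and 19.3 CPM (0.65, SE 0.08, adjusted p = 0.00047). The differences between the ages were 0.35, 0.78 and 0.59 for Adamts2, Adamts3 and Adamts14. Of the procollagen genes themselves, Col1a1 fell at E14.5 and E16.5 (-1.31 and -1.76), as did Col1a2 (-0.98 and -2.79), while Col3a1 did not pass at either age (0.02 and -0.17).

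Of the other 9 ADAMTS genes, Adamts12 and Adamts17 fell and Adamts16 rose at E14.5, and at E16.5 Adamts10, Adamts13, Adamts16 and Adamts19 rose and Adamts6 fell. Adamts17, one of the enzymes associated with fibrillin microfibrils, was at 80.4, 69.5 and 80.8 CPM in E14.5 controls and 44.3, 48.6 and 49.2 CPM in mutants (-0.70, SE 0.08, adjusted p = 0.000357). At E16.5 its controls (25.0, 22.9 and 27.5 CPM) were above its mutants (19.8, 19.5 and 22.1 CPM) without overlap, short of the threshold (-0.27, SE 0.09, adjusted p = 0.0567, and 0.0128 with the replicate block). Adamts10, another enzyme known to bind fibrillin, was at 91.3, 84.6 and 70.9 CPM in E16.5 controls and 142, 119.7 and 111 CPM in mutants (0.62, SE 0.13, adjusted p = 0.00752), and its E14.5 values overlapped (0.20, adjusted p = 0.172).

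Adamts16 was at 8.67, 13.3 and 10.3 CPM in E14.5 controls and 15.9, 15.5 and 17.6 CPM in mutants (0.61, SE 0.14, adjusted p = 0.0275). The E16.5 level was 3.39, 3.90 and 2.51 CPM in controls and 4.11, 7.88 and 6.28 CPM in mutants (0.91, SE 0.26, adjusted p = 0.0294). All mutants were above all controls at both ages, but the E14.5 call was lost without any library other than control library 2 (adjusted p from 0.0582 to 0.0970) and the E16.5 call without any library other than mutant library 1 (adjusted p from 0.0509 to 0.0880). Adamts13, the protease that cuts von Willebrand factor, was at 0.907, 1.08 and 0.737 CPM in E16.5 controls and 2.20, 2.37 and 2.40 CPM in mutants (1.38, SE 0.22, adjusted p = 0.00241). At E14.5 it was at 0.212 to 0.483 CPM in controls and 0.532 to 0.972 CPM in mutants (0.94, SE 0.37, adjusted p = 0.162). Adamts19 was at 2.97, 2.65 and 2.45 CPM in E16.5 controls and 3.99, 3.93 and 4.31 CPM in mutants (0.62, SE 0.16, adjusted p = 0.0212), a call lost without control library 2 or 3 or mutant library 3 (adjusted p from 0.0724 to 0.0730).

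Adamts12 was at 82.0, 70.5 and 80.4 CPM in E14.5 controls and 59.4, 60.2 and 64.1 CPM in mutants (-0.34, SE 0.07, adjusted p = 0.0166), a call lost without control library 1 or 3 or mutant library 1 or 2 (adjusted p from 0.0637 to 0.0799). Adamts6, at 6.34, 7.38 and 6.40 CPM in E16.5 controls and 4.57, 5.14 and 5.26 CPM in mutants (-0.40, SE 0.13, adjusted p = 0.0492), lost its call without any 1 library (adjusted p from 0.0519 to 0.179) and with DESeq2's size factors or upper-quartile factors (0.0519 and 0.0608). Adamts7 and Adamts18 did not pass at either age, but Adamts18 was at 38.0 CPM in E16.5 mutant library 1 and at 70.2 and 60.8 CPM in libraries 2 and 3, against 41.3 to 51.2 CPM in controls, and it passed without library 1 (0.48, adjusted p = 0.0183).

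The ADAMTS-like genes included the largest called fall at E14.5. Adamtsl1 was at 57.5, 59.5 and 62.0 CPM in E14.5 controls and 28.6, 33.6 and 32.1 CPM in mutants, a wide gap between tight groups (-0.92, SE 0.07, adjusted p = 3.85e-05). At E16.5 it was at 38.7, 37.5 and 42.2 CPM in controls and 27.0, 31.4 and 29.9 CPM in mutants (-0.40, SE 0.08, adjusted p = 0.00609). The effect was smaller at the later age by 0.50 (SE 0.11, adjusted p = 0.00625). Adamtsl4, a fibrillin-associated protein of the eye's zonule, was at 2.70, 2.57 and 3.02 CPM in E14.5 controls and 1.34, 1.45 and 1.75 CPM in mutants (-0.87, SE 0.17, adjusted p = 0.0156), a call lost without control library 3 or mutant library 1 or 2 (adjusted p from 0.0597 to 0.0725). In the older embryos it was at 8.94, 7.99 and 8.91 CPM in controls and 5.55, 4.07 and 5.24 CPM in mutants (-0.77, SE 0.15, adjusted p = 0.00642).

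Adamtsl2 and Adamtsl3 rose at E16.5 with no gap at E14.5 (0.11 and 0.00, adjusted p = 0.785 and 0.986). Adamtsl3 was at 5.61, 5.83 and 7.25 CPM in E16.5 controls and 10.96, 8.20 and 12.1 CPM in mutants (0.77, SE 0.17, adjusted p = 0.0118), lowest in library 2. The call was lost with library 2 as the sole mutant (0.42, adjusted p = 0.130) and without control library 1 or 2 (adjusted p = 0.0534 and 0.0555). Adamtsl2, which binds microfibril proteins, was at 0.669, 0.552 and 0.759 CPM in E16.5 controls and 1.96, 1.08 and 1.04 CPM in mutants (1.07, SE 0.33, adjusted p = 0.0398). It was highest in mutant library 1, and the call was lost without that library (0.69, adjusted p = 0.150), with library 2 as the sole mutant (0.73, adjusted p = 0.141) and without any control library (adjusted p from 0.0697 to 0.133). Adamtsl5 did not pass between genotypes at either age (-0.35 and -0.11).

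From E14.5 to E16.5 most of the family fell. In controls Adamts3 went from 37.8 ± 6.86 to 9.25 ± 0.632 CPM, Adamts16 from 10.7 ± 2.33 to 3.27 ± 0.700 CPM, Adamts17 from 76.9 ± 6.41 to 25.1 ± 2.28 CPM, Adamts15 from 33.2 ± 9.05 to 11.1 ± 1.38 CPM and Adamtsl2 from 2.02 ± 0.219 to 0.660 ± 0.104 CPM. Of 44 members 31 fell and 5 rose in controls, of which 17 and 4 by 2-fold or more (8.53% and 18% of all genes), where 32.1% of all genes tested fell and 34.3% rose. The median log2 change was -0.87 for the family and -0.003 for all genes. In mutants 24 fell and 6 rose, of which 8 and 5 by 2-fold or more (2.93% and 13.5% of all genes), where 24.4% of all genes fell and 27.2% rose, with a median of -0.39 against 0.003. The comparisons with age use the same libraries as those between genotypes, so the smaller fall in mutants and the difference between the ages are 1 measurement seen from 2 sides.

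The genes that rose with age were few and the same 5 of the 44 tested in both genotypes, Mmp24 adding a sixth in mutants. Among all 17550 genes tested, 23.9% rose in both. Timp4 went from 0.632 ± 0.224 to 18.1 ± 1.31 CPM in controls, Adamtsl5 from 4.87 ± 0.906 to 31.5 ± 1.29 CPM, Adamtsl4 from 2.76 ± 0.232 to 8.61 ± 0.544 CPM, Adamts13 from 0.371 ± 0.142 to 0.909 ± 0.172 CPM and Mmp23 from 6.31 ± 0.992 to 9.82 ± 1.24 CPM. In mutants the log2 changes were 2.98 for Timp4, 2.91 for Adamtsl5, 1.71 for Adamtsl4, 1.68 for Adamts13 and 0.70 for Mmp23. The largest falls in mutants were those of Mmp12 (-1.58), Adamts16 (-1.43), Adamts6 (-1.39), Mmp13 (-1.38) and Mmp16 (-1.31). All 24 genes that fell in mutants also fell in controls (21.2% of all 17550 genes fell in both), where another 7 passed the test: Adamts1, Adamts10, Adamts14, Adamtsl1, Adamtsl3, Mmp25 and Timp3. Of these 7, the difference between genotypes was itself called for Adamts14, Adamtsl1, Adamtsl3 and Timp3.

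**Figure D4:**
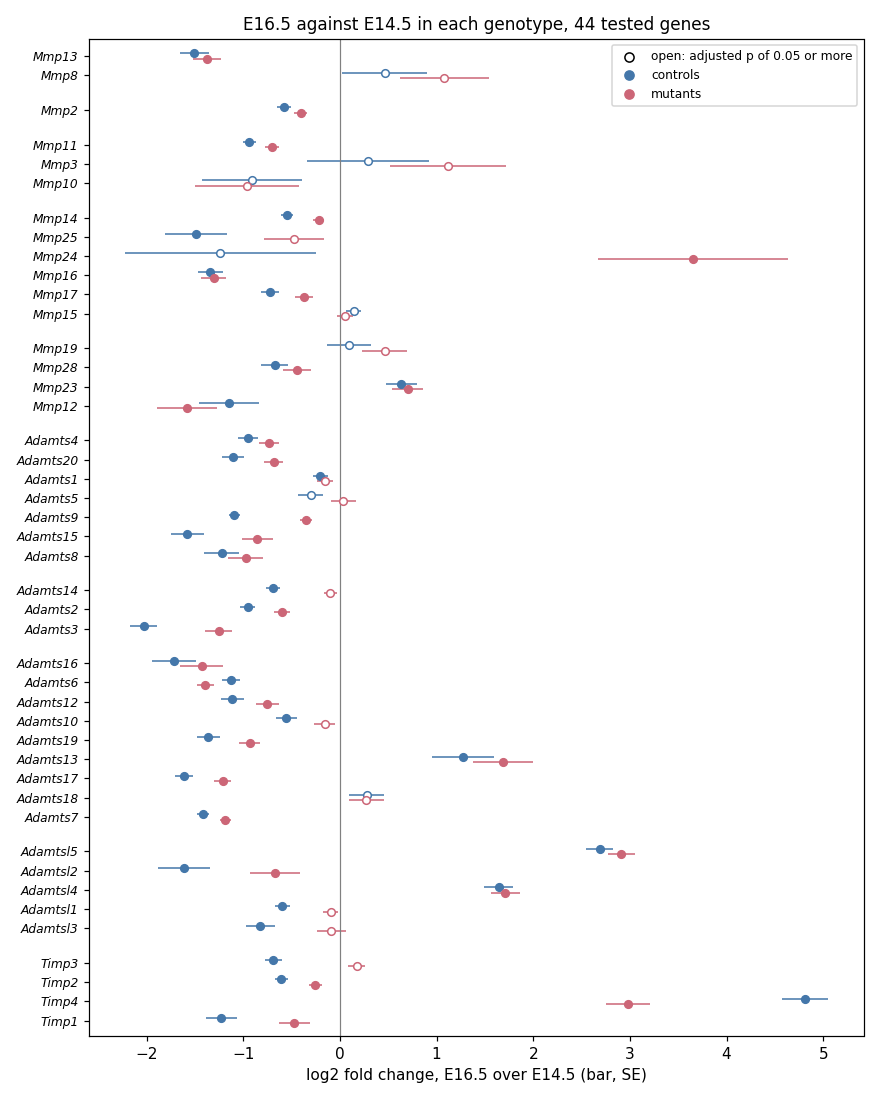
Log2 fold change of E16.5 over E14.5 (horizontal axis; bar, SE) in controls and in mutants for the 44 tested members, in the class order of the plot of genotype effects; filled points passed an adjusted p of 0.05. Most points lie below 0, and Timp4 (4.81 in controls, 2.98 in mutants) and Adamtsl5 (2.69 and 2.91) lie farthest above it, apart from Mmp24 in mutants (3.65).

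Markers of several cell types moved with age and genotype as well. Among all genes tested, 34.3% rose and 32.1% fell with age in controls. Between genotypes 2.95% of all genes rose and 4.57% fell at E14.5, and 12.2% rose and 15.7% fell at E16.5. Epithelial markers summed to 843 to 1443 CPM in E14.5 controls and 13548 to 14176 CPM in E16.5 controls, with 8 of 8 rising, while 7 of 7 endothelial markers fell (531 to 569 CPM, then 222 to 237 CPM). In E16.5 mutants the epithelial sum was 8517 CPM in library 1, 13596 in library 2 and 11271 in library 3, and 2 of 8 markers fell. Palate mesenchyme markers summed to 1290 to 1427 CPM in controls and 2155 to 2503 CPM in mutants at E14.5 (2 of 7 rose), and to 887 to 1030 and 1757 to 2655 CPM at E16.5 (3 of 7 rose). The gap in these sums was mostly that of 1 gene, Prrx1. Its mean was 232.7 CPM in controls and 1172 CPM in mutants at E14.5, and 440.9 and 1648 CPM at E16.5. Pdgfra had a lower mean in the E14.5 mutants (413.9 CPM, against 490.6 CPM in controls) and was not called. Between genotypes, 5 of 7 endothelial markers fell at E14.5 (433 to 466 CPM in mutants) and 7 of 7 rose at E16.5 (311 to 396 CPM in mutants). Osteoblast markers fell in the mutants, from a sum of 3004 to 3455 CPM to 1083 to 1165 CPM at E14.5 (8 of 9 fell) and from 562 to 692 CPM to 218 to 247 CPM at E16.5 (7 of 9 fell, 1 rose). Of the chondrocyte markers, Acan, Col2a1, Col9a1 and Sox9 rose and Ihh fell at both ages, out of 8 tested at E14.5 and 7 at E16.5. Their sum was 111 to 154 CPM in controls and 285 to 308 CPM in mutants at E14.5, and 92.7 to 115 and 447 to 639 CPM at E16.5. Osteoclast markers fell in 4 of 9 cases at E14.5, and 4 of the 8 tested rose at E16.5. The part of these cell types in the changes of the proteases was not tested.

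Other enzymes and inhibitors of the matrix were read from lists drawn up beside the family. The counts below stand against 2.95% of all genes rising and 4.57% falling at E14.5, and 12.2% and 15.7% at E16.5. Of 9 tested genes of the plasminogen and proprotein convertase system, 2 fell and 0 rose at E14.5, and 3 rose and 2 fell at E16.5. Pcsk6, a convertase that cuts precursor proteins at the cell surface, fell from 179 ± 9.15 to 88.3 ± 4.68 CPM at E14.5 (-1.02, adjusted p = 9.81e-06), and Plaur, the urokinase receptor, fell by 0.70. Pcsk5 rose at E16.5 (0.83, adjusted p = 0.000749) and Serpinb2, an inhibitor of plasminogen activators, fell by 0.63. Among other metalloproteases, 3 of 14 tested fell at E14.5, with Phex, a bone enzyme, at -1.70 and Adam12 at -0.55. At E16.5 4 of 15 rose and 2 fell, the latter 13.3%, near the share of all genes. Adam8 went from 50.1 ± 2.25 to 18.1 ± 1.03 CPM (-1.45), Tll2, a relative of the procollagen C-proteinase, rose by 2.38 and Mep1a fell by 1.68, both at group means under 1 CPM.

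Of 12 other inhibitors and cofactors, 5 fell and 0 rose at E14.5, and 4 rose and 2 fell at E16.5, the latter 16.7%, near the share of all genes. Pcolce2, an enhancer of procollagen C-terminal processing, fell from 25.3 ± 3.15 to 10.8 ± 0.120 CPM at E14.5 and rose from 3.21 ± 0.376 to 6.96 ± 2.41 CPM at E16.5 (-1.23 and 1.15). The broad protease trap A2m fell at E14.5 (-1.09), as did Lrp1, the receptor that clears proteases and their inhibitors (-0.49). Spock1 rose (1.40) and Spock3 fell by 0.87 at E16.5. Reck, a membrane-anchored MMP inhibitor, rose at E16.5 (0.37, adjusted p = 0.0168). Of 12 cathepsins and cystatins, the proteases of the lysosome and their inhibitors, 0 passed edgeR's test at E14.5 and 3 had an unadjusted p under 0.05. At E16.5 Ctsk, the collagen-cutting cathepsin of osteoclasts, rose (0.47), and Ctsh and Ctsd fell by 0.91 and 0.25. These are 8.33% and 16.7% of the list, near the 12.2% and 15.7% of all genes. With age, 9 of the 12 rose in controls and 9 in mutants (34.3% and 27.2% of all genes), where most of the MMP and ADAMTS genes fell.

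Of 18 matrix substrates, 6 fell and 2 rose at E14.5, and 7 rose and 3 fell at E16.5. The 3 that fell are 16.7% of the list, near the 15.7% of all genes. Aggrecan (Acan) rose at both ages, from 12.1 ± 2.23 to 45.4 ± 0.652 CPM (1.91) and from 11.2 ± 0.735 to 40.4 ± 4.74 CPM (1.87). Fibronectin (Fn1) fell at both (-0.83 and -2.79) and Col2a1 rose at both (0.62 and 3.27). The fibrillin genes Fbn1 and Fbn2 fell at E14.5 (-0.69 and -0.60) and did not pass at E16.5 (0.09 and 0.26).

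At an adjusted p under 0.05, the authors' deposited table of their own test holds 4 family members higher and 14 lower in mutants at E14.5 (5.75% and 7.62% of all genes with an adjusted p in the authors' deposited table), among them the 3 and 12 called here, and 15 higher and 6 lower at E16.5 (14.3% and 16.4% of all genes), among them the 13 and 5 called here.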

How the data were processed

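RNA was extracted from the anterior hard palate with an RNeasy Micro Kit, per the labels' protocols. Reads were aligned with HISAT2 to mm9 and counted with featureCounts, and tested with DESeq2, per the submitters' processing notes; versions, annotation and strand setting are not given in the sources used here. The deposited values used were raw read counts per gene. From the deposited tables of the authors' own comparisons, log2 fold changes and p-values were used only for the count of shared calls. Another 24 per-sample columns were not used. Of the counts from 1 to 20, 71.4% were even, where 50% would be even if reads were counted singly, so reads may have been counted in pairs and low counts are then less precise. A total of 27 date-like symbols held 0.251% of counts.

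Genes passing filterByExpr were tested with edgeR 4.0.16 (R 4.3.3; TMM factors, glmQLFit and glmQLFTest) within each age, and in 1 fit of all 12 libraries for the difference between ages and for age. Calls were made at p under 0.05 after Benjamini-Hochberg adjustment over all genes tested. CPM used TMM factors over 12 libraries, and levels per kb used GENCODE M21 exon lengths; these and the RefSeq promoters, both on GRCm38, were matched by symbol. Alternatives were DESeq2 1.42.0, limma 3.58.1 (voom), other size factors, filters, blocks and left-out libraries. The scripts were tested on simulated counts. Same-numbered E16.5 libraries deviated together (correlations 0.105, 0.161 and 0.222 over 17550 genes), and at E14.5 the correlations were 0.0193, 0.0445 and 0.16. Between the ages, the same-numbered libraries had correlations of 0.0618, 0.0981 and 0.158 in controls and -0.0239, 0.0106 and 0.159 in mutants. The replicate number may thus pair the E16.5 libraries, or stand for something that libraries numbered 3 share across the groups. Which of these holds was not tested. The main tests did not use the replicate number. The replicate block and the term for replicates numbered 3 were run as alternatives only.

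Members and gene lists were chosen with earlier results of these data known. The rule for values in every library took the 4 Timp genes and up to 14 called members per age with a mean of at least 1 CPM and the largest changes; further members were added after their values were seen.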

Additional observations from a re-analysis of the deposited data

Results flagged for a closer look

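The mutant effect differed between E14.5 and E16.5 for 14 of the 44 members tested, by the test of that difference in edgeR (log2 change at E16.5 minus that at E14.5, adjusted p under 0.05). Of these, 13 differences were positive and 1 was negative (29.5% and 2.27% of the members tested). Among all 17550 genes tested, 9.97% had a positive and 12.4% a negative difference by that test. Timp4 was the 1 member with a negative difference, -1.83. Among the other inhibitors it was 0.86 for Timp3, 0.76 for Timp1 and 0.35 for Timp2. Among the membrane-bound MMPs it was 0.33 for Mmp14 and 4.89 for Mmp24, the latter resting on E16.5 mutant libraries 1 and 3. For the procollagen enzymes it was 0.35 for Adamts2, 0.78 for Adamts3 and 0.59 for Adamts14. It was 0.74 for Adamts9, 0.72 for Adamts15 and 0.40 for Adamts17. For the ADAMTS-like genes it was 0.50 for Adamtsl1 and 0.74 for Adamtsl3. Whether the 2 ages were collected or sequenced together is not given in the sources used here.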

How the results depend on the processing

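Of 60 named log2 fold changes, 36 kept their direction and their side of the threshold in all alternatives run; of 996 alternative values 895 did so, 99 lost the call and 2 changed sign. Both sign changes were of the uncalled Timp1 value at E16.5, which was -0.083 without control library 3 and -0.086 without mutant library 1, the lowest of the values without 1 library (the highest was 0.208). The number of members that rose at E14.5 (3) was 5 with the replicate block or with a term for replicates numbered 3, and 0 with replicates 1 and 2 alone or with all 12 libraries in 1 fit (edgeR). The number that rose at E16.5 (13) was 8 with a filter of 5 CPM in 3 libraries and 4 with replicates 1 and 2 alone, where 1 fell in place of 5. The number with a more positive effect at E16.5 (13) was 6 with replicates 1 and 2 alone, 6 with mutant library 2 as the sole E16.5 mutant, whose spread was assumed to be that of the other groups, and 1 when a 2-fold difference was also required. That 1 member was Mmp24, and 3% of all 17550 genes tested were called higher by 2-fold or more. With the 2-fold requirement, 17 of 31 fell with age in controls and 8 of 24 in mutants (8.53% and 2.93% of all genes). Leaving out 1 library at a time gave 1 to 4 rising and 6 to 14 falling at E14.5, 7 to 13 and 4 to 4 at E16.5, 7 to 17 for the positive difference, 30 to 32 falling with age in controls and 19 to 23 in mutants. With the replicate block, 15 fell at E14.5, 16 rose and 6 fell at E16.5, and 18 had a positive difference between the ages. Shares of all genes called were not counted for the alternatives. A gain or loss of calls particular to the family thus cannot be told from a general one. Other size factors moved the median of all genes by at most 0.071 on the log2 scale, in size. The cause of these moves was not tested, apart from the smaller number of libraries or genes in some. Counts of genes under 1 CPM limit what can be said of them.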
